A study of Mus musculus with 5 samples.

Results

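The genes described here encode the proteins of the cytosolic ribosome, the particle that translates messenger RNA, in mouse embryos at the 2-cell stage. Members were all rows of the expression table whose symbol has the form of a cytosolic ribosomal protein (Rpl or Rps with a number, Rplp0 to Rplp2 and Rpsa, with a, x or l endings for paralogs). This gave 84 of 32285 rows, 52 for the large subunit and 32 for the small subunit. Oocytes of superovulated females aged 6 to 9 weeks were fertilised in vitro for about 6 h with sperm of males aged 12 to 16 weeks. Fertilised eggs then spent 24 h in KSOM medium, either containing 25 nM PNMC (3 libraries) or an equal volume of the solvent DMSO (2 control libraries). The labels do not spell out PNMC, name no mouse strain, and do not say how many embryos each library held or whether libraries came from separate cultures. P-values therefore rest on the spread among these 5 libraries alone, and that spread may be technical. The design asked how exposure to PNMC altered gene expression at this stage.

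The ribosome has a small subunit, which reads the messenger RNA, and a large subunit, which forms the peptide bond. Each ribosomal protein is made from its own gene, and most are built into the particle in equal amounts. Most of these genes are also copied across the genome as processed pseudogenes. Ribosomal protein mRNAs begin with a terminal oligopyrimidine tract, a C followed by a run of pyrimidines, through which mTOR and the RNA-binding protein Larp1 control their translation and stability. The growing oocyte stores ribosomes for the embryo, and the mouse embryo resumes making ribosomal RNA around the 2-cell stage.

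The first bases of a few members are shown because the pyrimidine tract is what these mRNAs are known to share. Each line gives 15 bases before and 15 bases from the annotated start, 5′ to 3′ on the gene's strand, from RefSeq on GRCm38.p6. Capitals mark every C followed by at least 4 pyrimidines.
Rps6: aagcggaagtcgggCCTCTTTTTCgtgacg
Rplp2: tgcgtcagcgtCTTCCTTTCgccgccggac
Rpl38: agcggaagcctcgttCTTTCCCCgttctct
Rps18: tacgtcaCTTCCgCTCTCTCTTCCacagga
Rps6 is at chr4:86857353-86857382 on the minus strand and Rplp2 at chr7:141447636-141447665 on the plus strand. Rpl38 is at chr11:114668565-114668594 on the plus strand and Rps18 at chr17:33955651-33955680 on the minus strand. In all 4 the run covers the annotated start itself. The promoter table held 64 of the 84 members, and 13 of those (20.3%) had a C with at least 4 pyrimidines after it exactly at the annotated start, against 3.01% of the 27025 genes in the table. Allowing a longer run of C and at least 6 pyrimidines anywhere from 20 bases before to 30 after the start, 38 members (59.4%) had one on the gene's strand, against 25.0% of all genes. The same search on the other strand found it in 8 members (12.5%), against 29.1% of all genes.

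Further upstream, within 250 bases before and 50 after the start and on either strand, the ETS core CCGGAA stood in 54.7% of the 64 members and in 16.7% of all genes. The GC box GGGCGG stood in 62.5% of members and 38.2% of all genes, and the YY1 core AAGATGGC in 9.38% and 3.19%. The sequence TATAAA was the exception, in 10.9% of members and 15.7% of all genes. These are matches of letters, not sites of binding. The 13 members with the run at the start had a median level of 33.1 and a median log2 change of -0.22, with 11 of 13 lower after PNMC. The 51 without it had a median level of 38.7 and a median log2 change of -0.11, with 34 of 51 lower.

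Values are normalised expression levels in an unstated unit, and no read depth was given. Their sums lay between 446010 and 454548 in the 5 libraries, in which 17408 to 18595 genes were above 0. The 10th percentile of the genes' smallest value above 0 was 0.0789 for transcripts shorter than 1000 bases and 0.0171 for those of at least 4000 bases, so the smallest values fell with length, as they do in a unit per length. Levels are compared between genes on that ground only, and the scale is the deposited one throughout. Markers of the labelled stage were present in every library, with oocyte markers summing to between 4758 and 5233 and 2-cell programme genes to between 470 and 607. Of 12 cumulus cell markers, Ptx3, Foxl2, Cd44, Krt19 and Inhbb were at 0 in every library, and of 9 sperm markers Prm1, Tnp2 and Smcp were at 0. The exceptions with values above 1 in every library were Amhr2 of the cumulus list, at 17.1 to 26.1, and Odf2 and Prm2 of the sperm list. Odf2 was at 123 to 143, and Prm2 was at 3.91 and 4.02 in the controls and 5.19, 5.79 and 4.54 after PNMC.

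All 84 members were above 0 in every library, and all 84 passed the filter of a level of at least 1 in at least 2 libraries. Their levels spanned 586-fold, from a mean of 473 for Rplp0 to 0.808 for Rpl29. Rpl29 shares much of its sequence with other genes, so its place and this span are uncertain. Apart from paralogs, most of their proteins stand at about equal numbers in the ribosome. The median of the members' mean levels was 39.3, against 7.09 over all 12734 genes tested, with 75 members at 10 or more and 12 at 100 or more. Small subunit members had a median of 46.6 and large subunit members one of 32.9.

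**Figure D1:**
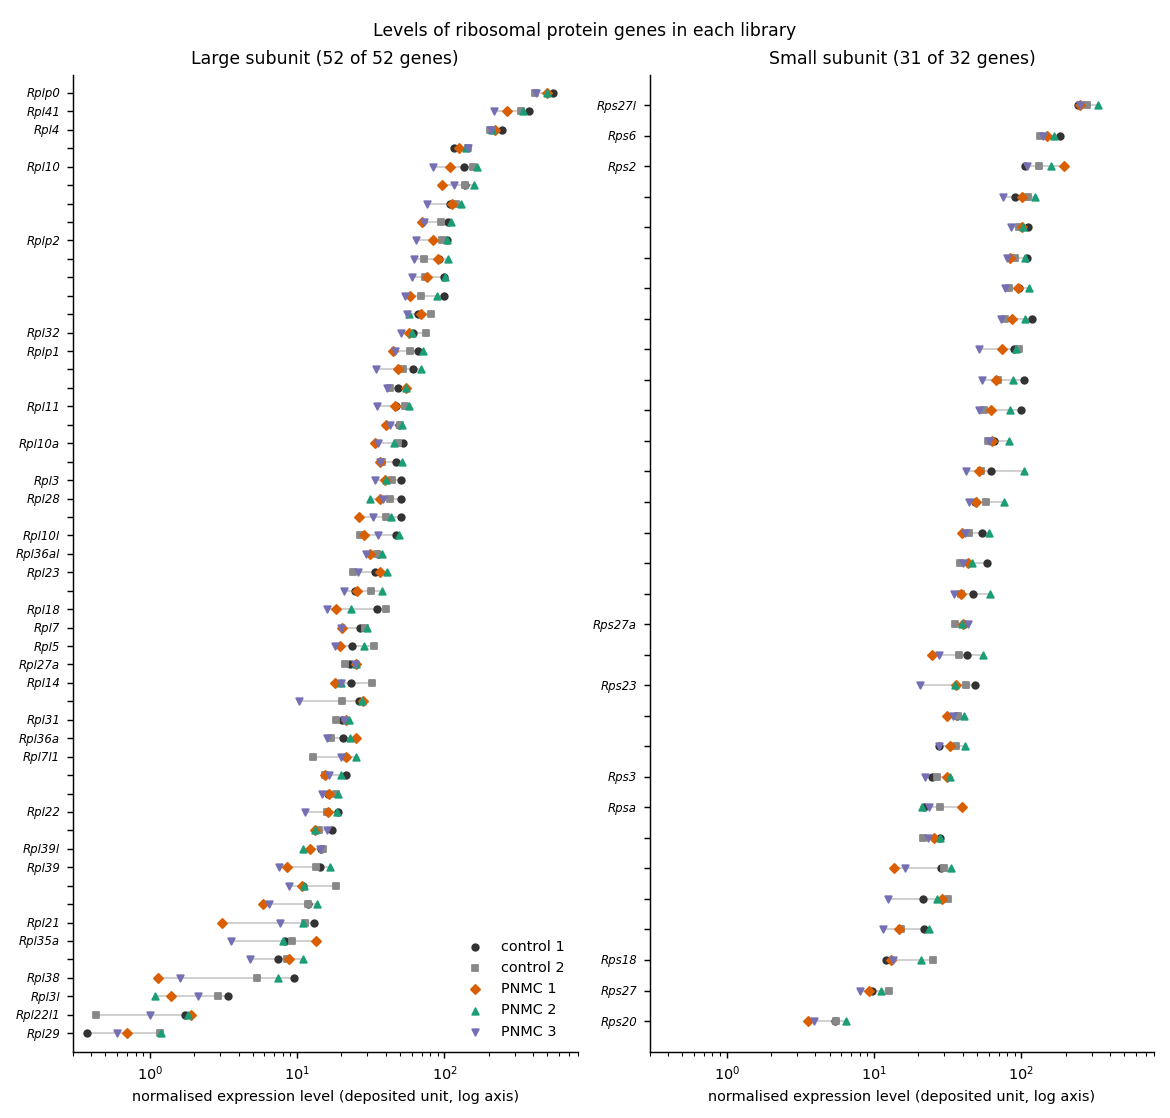
Level of 83 of the 84 ribosomal protein genes in each of the 5 libraries (x axis, deposited unit, log axis), large subunit on the left and small subunit on the right, ordered by mean level, with a grey line from the lowest to the highest library and names for genes given in the text. Most genes lie between 10 and 100, Rplp0 is highest and Rpl29 lowest, and PNMC 3 is often the leftmost point.

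Rplp0, which anchors the stalk that recruits elongation factors, was highest of the large subunit at 544 and 412 in the controls and 498, 495 and 417 after PNMC. Rpl41, a peptide of very few residues, was at 373 and 331 in the controls and 265, 339 and 215 after PNMC. Rpl4, which lines the exit tunnel, was at 246 and 204 in the controls and 219, 211 and 208 after PNMC. In all 3 the groups overlapped, and Rpl4 was one of the steadier members.

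The highest small subunit member was a paralog. Rps27l was at 244 and 281 in the controls and 250.4, 330.4 and 250.4 after PNMC. Rps6, the substrate of the S6 kinases, was at 182 and 133 in the controls and 150.4, 167 and 140.1 after PNMC. PNMC 2 was the highest library for Rps27l, and control 1 for Rps6.

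At the low end of the large subunit stood Rpl29, at 0.376 and 1.17 in the controls and 0.697, 1.19 and 0.603 after PNMC. The paralog Rpl22l1 was at 1.73 and 0.431 in the controls and 1.90, 1.81 and 1.01 after PNMC. Rpl3l was at 3.39 and 2.89 in the controls and 1.39, 1.08 and 2.11 after PNMC. Of these, Rpl3l had all PNMC values under both controls, while the other two overlapped. The lowest small subunit members were Rps20, at 5.48 in both controls and 3.58, 6.41 and 3.94 after PNMC, Rps27, and Rps18, at 12.0 and 25.0 in the controls and 12.96, 21.0 and 13.4 after PNMC. Rps18 and Rps20 are parts of the small subunit head, and both overlapped between groups.

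Pseudogenes and other copies limit what a level means for this family. A median of 50.3% of the 75-base stretches of a member's transcript also occurred, on either strand, in a transcript of another gene. Of the members, 43 shared at least 50%, while 13 shared under 10%. Any other gene name counted, such as RPS10-NUDT3 for Rps10 (90.1%). The percentage also depends on the transcript taken for each member, which for Rps20 (6.55%) had 3706 bases. Rpl29 shared 69.7% of its stretches, and Rps27 98.5% with the copy Rps27rt, which was itself listed at 1.27 and 1.20 in the controls and 0.939, 0.774 and 0.350 after PNMC. Rpl10 shared 91.9% with Rpl10-ps3, listed at 8.44 and 6.97 in the controls and 6.80, 7.19 and 3.36 after PNMC. Genes sharing stretches with Rpl29 stood above it, with means of 11.3 for Gm3550 (11.6% shared) and 5.98 for Uimc1 (52.8%). For Rps18, at a mean of 16.9, they were Gm10260 at 12.0, Gm11361 at 6.67, Gm48116 at 0.00265 and Gm26619 at 0. How reads were divided between such genes is not stated, so the levels of members sharing much of their sequence are uncertain. Among them were Rps27, Rpl29, Rps18 (77.8% shared), Rpl10, Rpl5 (92.5%), Rps6 (84.1%) and Rpl3 (83.2%). Over the 84 members the mean level and the shared percentage had a Spearman rho of -0.028, and the median level was 27.6 for members sharing under 10% and 40.0 for those sharing at least 50%.

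No ribosomal protein gene changed with PNMC at an adjusted p under 0.05. The count was 0 of 84 members, against 0% of 12734 genes in the limma fit, and the smallest adjusted p among members was 0.595. Before adjustment, 7 members with lower means had a limma p under 0.05 (6 large subunit and 1 small subunit), where 3.27% of all genes did. The count of members with higher means was 0, where 1.73% of all genes passed in that direction and 4.99% in either. Without limma's variance trend the number of genes called was also 0. Means were lower after PNMC in 60 of 84 members (71.4%) and higher in 24, against 56.9% lower among all genes tested. After scaling the libraries to one median, 50 of the 84 were lower, and the share of all genes under that scaling is not given here. The median log2 change of the members was -0.15, against -0.05 over all genes tested, on the log2(level + 1) scale, which understates changes of low genes. The median was -0.013 without PNMC 3, -0.27 without PNMC 2, -0.09 without control 1, and -0.06 after median scaling. The median over all genes is not given for these alternatives, so -0.05 is no baseline for them.

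**Figure D2:**
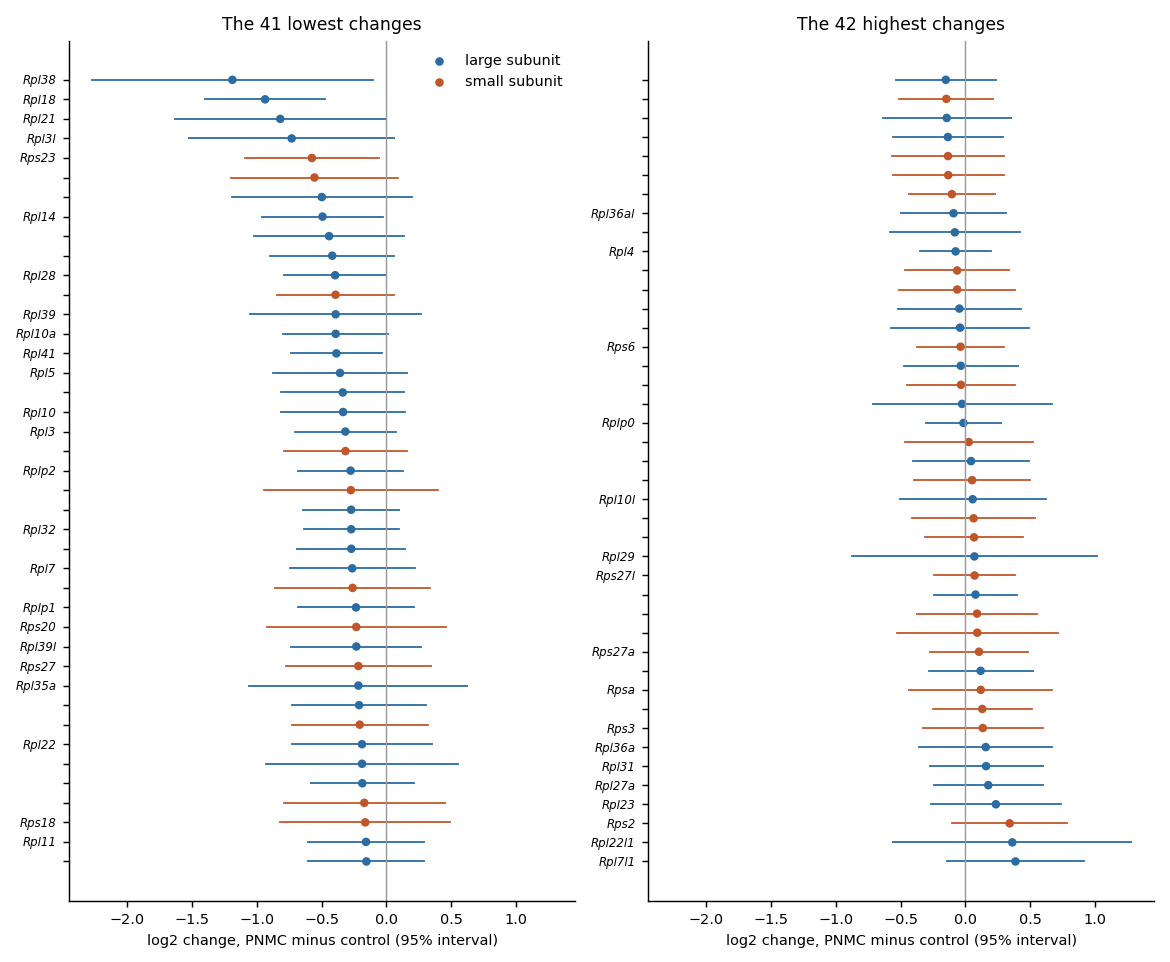
Log2 change of 83 of the 84 genes, PNMC minus control (x axis, log2(level + 1) scale), with limma's 95% interval as a line; the 41 lowest changes are on the left, the 42 highest on the right, coloured by subunit, with names for genes given in the text. Intervals of 7 genes lie wholly under 0 and of 0 genes wholly above it, before adjustment for the genes tested.

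Intervals were narrower for most members than for genes at large. The 95% interval of the log2 change lay within 1 unit on either side of 0 in 72 of 84 members (85.7%), against 61.4% of all genes, namely in 42 of 52 large subunit and 30 of 32 small subunit members. The median width of that interval was 0.928 for members and 1.31 for all genes. The median SD of log2 levels over the libraries was 0.290 for members and 0.299 for all genes. The fit lets the variance follow the level, which was higher in members (median 39.3, against 7.09). Genes of like level were not compared.

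Among the members with the smallest p, Rpl18 of the large subunit was at 34.6 and 40.2 in the controls and 18.5, 23.4 and 15.9 after PNMC. All 3 PNMC values lay under both controls, with a log2 change of -0.93 (SE 0.216, 95% interval -1.40 to -0.47, limma adjusted p = 0.595). Rps23, whose protein lies at the decoding centre, was at 48.2 and 41.9 in the controls and 36.3, 35.5 and 20.6 after PNMC. Its log2 change was -0.57 (SE 0.239, limma adjusted p = 0.967), and the groups did not overlap. Rpl14 was at 23.1 and 32.4 in the controls and 17.9, 19.8 and 19.8 after PNMC, again without overlap (log2 change -0.49, SE 0.215). For Rpl41 the log2 change was -0.39 (SE 0.163), with PNMC 2 between the 2 controls. With a library left out, the change ran from -1.08 to -0.81 for Rpl18, -0.71 to -0.32 for Rps23, -0.73 to -0.26 for Rpl14 and -0.55 to -0.23 for Rpl41, with the smallest value of Rps23 and Rpl41 without PNMC 3 and of Rpl14 without control 2.

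Rpl38, a large subunit protein whose loss in the mouse disturbs translation of Hox mRNAs and the body axis, varied most of all members. It was at 9.59 and 5.38 in the controls and 1.14, 7.45 and 1.60 after PNMC, so PNMC 1 and PNMC 3 were low and PNMC 2 lay between the controls. Its log2 change was -1.19 (SE 0.502, limma adjusted p = 0.967), and -1.80 without PNMC 2. Next in spread came Rpl21, at 13.1 and 11.3 in the controls and 3.09, 10.9 and 7.62 after PNMC. Rpl35a, mutated in some Diamond-Blackfan anaemias in humans, was at 8.22 and 9.29 in the controls and 13.3, 8.01 and 3.56 after PNMC. The PNMC libraries thus held both the highest and the lowest Rpl35a value.

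The members with the smallest p in the other direction were less far from the controls. Rps2, at the mRNA entry channel, was at 106 and 132 in the controls and 196, 159 and 109 after PNMC (log2 change 0.34, SE 0.205). Rpl23 was at 34.0 and 23.8 in the controls and 36.7, 40.5 and 25.7 after PNMC (log2 change 0.23, SE 0.233). Both overlapped. The log2 change of Rps2 was 0.15 without PNMC 1 and 0.57 without PNMC 3, and that of Rpl23 was -0.014 without control 2 and 0.48 without control 1. Rpl27a was at 22.9 and 21.3 in the controls and 25.2, 25.1 and 24.7 after PNMC (log2 change 0.18, SE 0.194). Its PNMC values were nearly equal and all above the controls. The limma adjusted p of Rps2, Rpl23 and Rpl27a was 0.993.

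The steadiest members by the SD of log2 levels over the 5 libraries were Rpl31 (0.101), Rps27a (0.102) and Rpl27a (0.103), against a median SD of 0.290 for members and 0.299 for all genes. Rpl31, near the end of the exit tunnel, was at 20.1 and 18.5 in the controls and 21.5, 22.4 and 21.0 after PNMC. Rps27a, made as a fusion with ubiquitin, was at 40.8 and 35.7 in the controls and 40.4, 39.4 and 43.6 after PNMC. It was the one member with its highest value in PNMC 3.

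All 3 PNMC values lay under both controls in 10 members (11.9%), 9 of the large and 1 of the small subunit, where 11.9% of all genes did. These were Rpl32, Rpl10a, Rpl3, Rpl28, Rps23, Rpl18, Rpl14, Rpl39l, Rpl21 and Rpl3l. All 3 lay above both controls in 2 members (2.38%), Rpl27a and Rpl31, where 7.97% of all genes did. The share of members lying under the controls was thus that of all genes. Members without overlap numbered 12 in all (14.3%, against 19.9% of all genes). The number was 31 without control 1, 34 without control 2, 14 without PNMC 1, 43 without PNMC 2 and 21 without PNMC 3. Those counts were 36.9%, 41.0%, 16.7%, 51.8% and 25% of the members fitted, against 50.3%, 52.3%, 32.3%, 34.6% and 31.7% of all genes. The members' share was above that of all genes without PNMC 2 and under it in each other case.

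The members' levels differed between libraries of the same group. Their summed level was 5564 and 5077 in the controls and 4842, 5851 and 4171 after PNMC, which was 1.25% and 1.14% of the total in the controls and 1.09%, 1.29% and 0.918% after PNMC. The highest and the lowest library were both PNMC libraries. With totals nearly equal between libraries, these are shares of the signal, from which neither the number of cells nor the RNA per cell can be read. PNMC 2 was the highest library for 40 members (47.6%), against 17.9% of all genes, and PNMC 3 the lowest for 44 (52.4%), against 21.9%. Both held for 22 members (26.2%), against 5.3% of all genes.

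The mean deviation of the members from their own mean over the 5 libraries, in log2 units, was 0.140 and 0.0507 in the controls and -0.108, 0.215 and -0.297 after PNMC. Over all genes tested the mean deviation was 0.00266 and 0.0704 in the controls and -0.0209, -0.0157 and -0.0365 after PNMC. In control 2 the members were thus under the mean of all genes. PNMC 3 was under PNMC 2 in 76 members (90.5%), against 50.5% of all genes, and under both controls in 63 (75%), against 37.2%. PNMC 2 was over both controls in 45 members (53.6%), against 28.6%. PNMC 1 was under both controls in 43 (51.2%), against 35.8%.

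**Figure D3:**
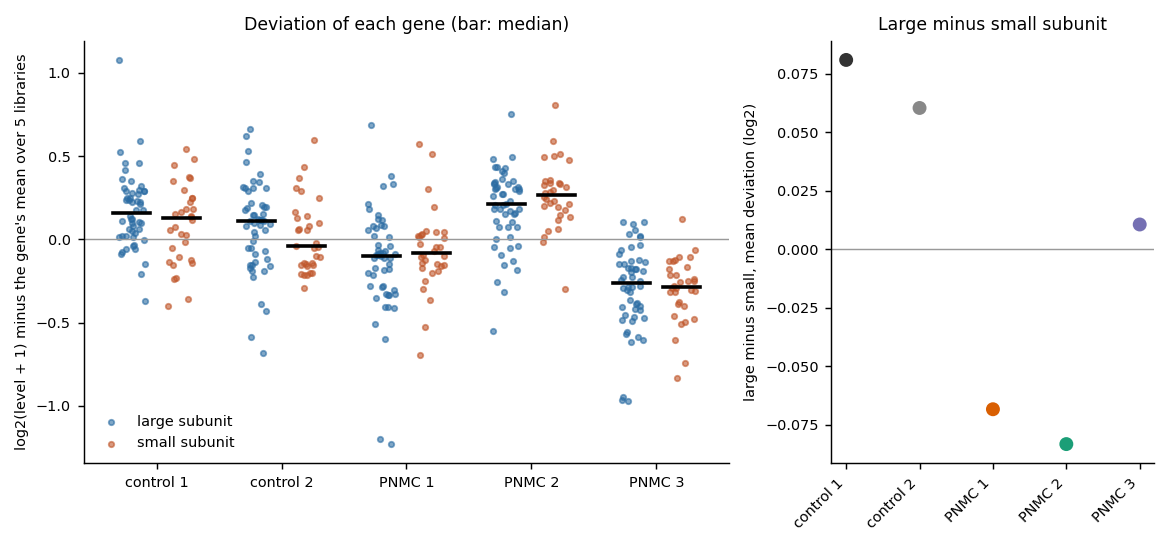
Left, deviation of each gene's log2(level + 1) from its own mean over the 5 libraries (y axis, log2 units), 1 point per gene, large subunit in blue and small subunit in orange, with the median as a bar. Right, mean deviation of the large subunit minus that of the small subunit in each library (y axis, log2 units). PNMC 2 sits highest and PNMC 3 lowest for both subunits, and the large-minus-small value is lower in all 3 PNMC libraries than in both controls.

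Genes listed as markers of other cells were read beside this pattern. The summed level of the 12 cumulus cell markers was 26.2 and 28.3 in the controls and 20.3, 29.2 and 19.4 after PNMC. Most of that sum was Amhr2, which alone of the list was highest in PNMC 2 and lowest in PNMC 3. Tnfaip6, Ptgs2 and Fshr were highest in control 2, Star in control 1, Has2 in PNMC 3 and Vcan in PNMC 1. Of the 12, 7 were under 1 in every library. The 5 oviduct markers, mainly Epcam and Cdh1, summed to 77.6 and 78.1 in the controls and 61.1, 112 and 69.3 after PNMC. The 9 sperm markers, mainly Odf2, summed to between 128 and 149.9, and the 6 blood markers to between 5.15 and 12.9, with Hbb-bt at 0 throughout. PNMC 2 had the highest sum for the cumulus, oviduct and sperm lists, each carried mainly by the genes just named. Whether those genes marked such cells in these embryos was not tested, so the sums do not measure the cells present. Of the oviduct list, Epcam, Cdh1 and Foxj1 were highest in PNMC 2, Ovgp1 in PNMC 1 (1.25) and Krt8 in control 2 (4.28). The part of these cell types in the result was not tested.

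Taken as means, the large subunit was lower relative to the small subunit in these PNMC libraries than in these controls. The mean log2 deviation of large minus small subunit members was 0.0808 and 0.0603 in the controls and -0.0684, -0.0832 and 0.0105 after PNMC. The groups did not overlap, with group means of 0.0705 and -0.0470, a difference of -0.12 and a pooled within-group SD of 0.042. As a score over chosen members it was given no test, and no share of other gene sets is given beside it. The difference stayed between -0.15 and -0.10 with any single library left out, and it was -0.13 without the 7 paralogs. Summed levels gave a large-to-small ratio of 1.5 and 1.49 in the controls and 1.35, 1.33 and 1.42 after PNMC. By median deviations the groups nearly met. Large and small subunit medians were 0.159 and 0.126 in control 1, and -0.263 and -0.286 in PNMC 3.

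By counts, 41 of 52 large subunit members (78.8%) and 19 of 32 small subunit members (59.4%) had lower means after PNMC, against 56.9% of all genes. Median log2 changes were -0.19 for the large and -0.06 for the small subunit. The library pattern was common to both subunits. PNMC 3 was under PNMC 2 in 46 of 52 large and 30 of 32 small subunit members.

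The stalk of the large subunit is built of Rplp0 with dimers of the acidic proteins Rplp1 and Rplp2. Rplp1 was at 65.9 and 58.3 in the controls and 44.4, 71.0 and 45.8 after PNMC. Rplp2 was at 104 and 96.3 in the controls and 84.2, 104 and 64.4 after PNMC. The acidic proteins thus shared a pattern in which PNMC 1 and PNMC 3 lay under the controls and PNMC 2 did not. Rplp0 had a log2 change of -0.02 (SE 0.134), against -0.24 (SE 0.208) for Rplp1 and -0.28 (SE 0.188) for Rplp2, and whether the 3 changes differed was not tested.

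Rpl5 and Rpl11 bind 5S ribosomal RNA and, when free of the ribosome, the p53 regulator Mdm2. Rpl5 was at 23.4 and 33.4 in the controls and 19.6, 28.3 and 18.2 after PNMC. Rpl11 was at 47.1 and 54.0 in the controls and 45.9, 57.2 and 34.8 after PNMC. Rpl10, which joins the large subunit late in the cytoplasm, was at 135 and 156 in the controls and 109, 166 and 83.7 after PNMC. All 3 overlapped between groups, with PNMC 3 lowest in each and PNMC 2 highest for Rpl11 and Rpl10. Their log2 changes were -0.36 (SE 0.241) for Rpl5, -0.16 (SE 0.209) for Rpl11 and -0.33 (SE 0.222) for Rpl10.

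On the small subunit, Rpsa, also known as the laminin receptor precursor, was at 21.9 and 28.0 in the controls and 39.3, 21.0 and 23.7 after PNMC. It was highest in PNMC 1 and lowest in PNMC 2, unlike most members. Rps3, at the mRNA entry channel, was at 24.8 and 26.9 in the controls and 31.4, 32.8 and 22.2 after PNMC. Rps6 had a log2 change of -0.04 (SE 0.156), Rpsa of 0.12 (SE 0.257) and Rps3 of 0.13 (SE 0.215), with limma adjusted p = 0.993 for each. All 3 intervals held 0, the widest from -0.43 to 0.67 for Rpsa.

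Of the 8 paralogs sought, 7 had a row and Rps4l was not analysed here. Rpl10, Rpl36a and Rpl39 lie on chromosome X, and their paralogs Rpl10l, Rpl36al and Rpl39l, known as retrotransposed copies, on chromosomes 12, 12 and 16. The bases at the starts of Rps27, Rpl36a and Rpl39 and of their paralogs are shown because these paralogs were on average at least as abundant as the main gene. The layout is as above, with capitals for a C followed by at least 4 pyrimidines.
Rps27: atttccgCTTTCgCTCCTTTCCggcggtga
Rps27l: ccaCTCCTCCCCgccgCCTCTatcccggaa
Rpl36a: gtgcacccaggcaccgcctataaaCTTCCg
Rpl36al: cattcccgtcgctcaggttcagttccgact
Rpl39: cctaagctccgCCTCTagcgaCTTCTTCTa
Rpl39l: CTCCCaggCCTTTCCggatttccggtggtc
Rps27 is at chr3:90213634-90213663 on the minus strand and Rps27l at chr9:66946071-66946100 on the plus strand, the first of its 2 annotated starts. Rpl36a is at chrX:134585639-134585668 on the plus strand and Rpl36al at chr12:69184053-69184082 on the minus strand. Rpl39 is at chrX:37085208-37085237 on the minus strand and Rpl39l at chr16:10170213-10170242 on the plus strand. A run covered the annotated start in Rps27 and ended on it in Rpl39. In Rps27l, Rpl36a and Rpl39l the runs lay to one side of it, and the Rpl36al window held none. Coding sequences were 76.1% identical between Rps27l and Rps27, 87.9% between Rpl36al and Rpl36a and 85.3% between Rpl39l and Rpl39. None of the 7 paralogs shared a 75-base stretch with its main gene. Rps27, Rpl36a and Rpl36al did share most of their stretches with other genes.

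Rps27l, a p53-inducible gene in human cells, was far above Rps27, which was at 9.64 and 12.7 in the controls and 9.28, 11.1 and 8.01 after PNMC. The ratio of Rps27l to Rps27 was 25.3 and 22.1 in the controls and 27.0, 29.8 and 31.2 after PNMC. Rps27l made up 96.4% of the pair's sum, and the ratio was higher in all 3 PNMC libraries. The difference in log2 ratio, taken after adding 1 to each level, was 0.29 (exact permutation p = 0.2, two-sided, adjusted p = 0.467 over the 7 pairs). With 3 libraries against 2 no p can go below 0.2. The ratio's level rests on Rps27, whose reads may have gone in part to Rps27rt.

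**Figure D4:**
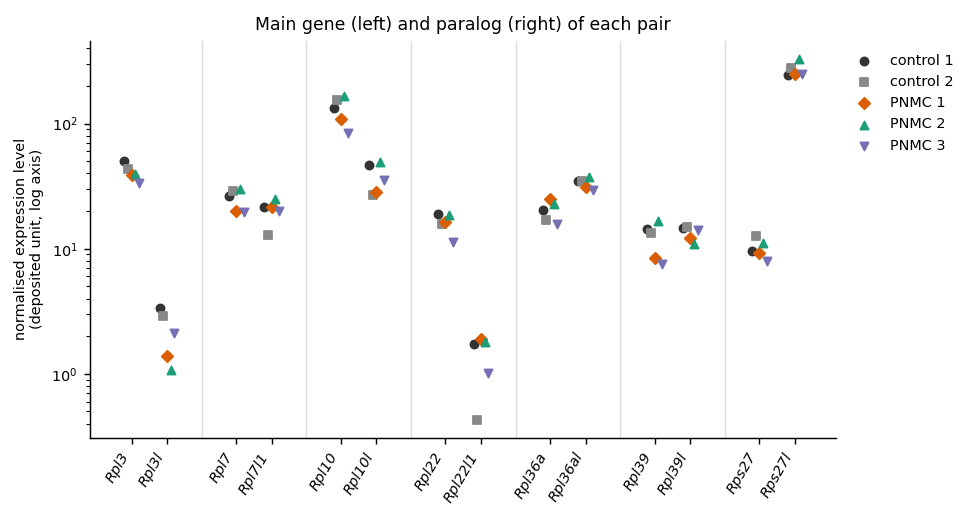
Level of the main gene (left of each pair) and its paralog (right) in each of the 5 libraries (y axis, deposited unit, log axis). Rps27l lies far above Rps27, Rpl3l and Rpl22l1 lie far under Rpl3 and Rpl22, and the other 4 pairs differ less.

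In the 3 X-linked pairs the autosomal copy made up a sizeable share of the pair's sum. Rpl10l, needed for male meiosis in the mouse, was at 46.9 and 26.7 in the controls and 28.6, 49.3 and 35.4 after PNMC, which was 22.4% of its pair on average. Rpl39l, known from male germ cells, was at 14.6 and 14.9 in the controls and 12.2, 11.0 and 14.2 after PNMC, or 52.5% of its pair, with Rpl39 at 14.3 and 13.4 in the controls and 8.50, 16.8 and 7.56 after PNMC. Rpl39l was nearly level across libraries where Rpl39 varied over a 2.22-fold range. Rpl36al was at 35.1 and 34.7 in the controls and 31.4, 37.6 and 29.6 after PNMC, or 62.4% of its pair, with Rpl36a at 20.5 and 17.0 in the controls and 25.2, 22.8 and 15.9 after PNMC. In all 5 libraries Rpl36al was above Rpl36a and Rpl10l was under Rpl10. Of their stretches Rpl36a shared 84.6% and Rpl36al 61.3% with other genes, so the order of this pair is uncertain. The differences in log2 ratio between groups were 0.39 for Rpl10l (exact permutation p = 0.6), 0.16 for Rpl39l (0.8) and -0.25 for Rpl36al (0.4). Without control 2 the Rpl10l value was -0.11, without PNMC 3 the Rpl39l value was -0.13, and without PNMC 1 the Rpl36al value was -0.092.

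Rpl3l and Rpl22l1 were the minor gene of their pair in every library. Rpl3l, known from skeletal muscle and heart, was 4.98% of its pair, with Rpl3 at 50.3 and 43.7 in the controls and 39.2, 39.9 and 33.6 after PNMC. Both genes of this pair lay under the controls in all 3 PNMC libraries. The plain ratio was 0.0672 and 0.0660 in the controls and 0.0353, 0.0270 and 0.0628 after PNMC, lower in all 3. The difference in log2 ratio was -0.41 after adding 1 (exact permutation p = 0.6) and -0.72 after adding 0.1 (exact permutation p = 0.2), and -0.24 without PNMC 2. Rpl22l1 was 7.82% of its pair, with Rpl22, known for its part in T cell development in the mouse, at 19.0 and 15.9 in the controls and 16.2, 18.6 and 11.4 after PNMC. Its plain ratio to Rpl22 was 0.0911 and 0.0272 in the controls and 0.117, 0.0973 and 0.0887 after PNMC, so the groups overlapped. The difference in log2 ratio was 0.55 after adding 1, a scale on which they did not overlap (exact permutation p = 0.2), 0.91 after adding 0.1, and 0.21 without control 2.

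Rpl7l1, a protein of precursor ribosomes in human cells, shared only 54.0% of coding bases with Rpl7. It was at 21.5 and 12.8 in the controls and 21.4, 25.0 and 19.9 after PNMC, with Rpl7 at 26.5 and 28.8 in the controls and 20.1, 29.96 and 19.8 after PNMC. The ratio was 0.811 and 0.443 in the controls and 1.06, 0.836 and 1.00 after PNMC. It was higher in all 3 PNMC libraries, by 0.65 on the log2 scale (exact permutation p = 0.2, adjusted p = 0.467 over the 7 pairs), and by 0.24 without control 2, the library in which it was lowest. After adding 1 to each level, 3 of 7 pairs had no overlap between groups, Rpl7l1, Rpl22l1 and Rps27l, each with the paralog higher relative to its main gene after PNMC. Levels of single genes had no overlap in 19.9% of all genes tested, and no share is given for other ratios. By plain ratios the pairs without overlap were Rpl7l1 and Rps27l, higher, and Rpl3l, lower. Adjusted over the 7 pairs, p lay between 0.467 and 0.8.

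Ribosomal proteins with other names were read in the same way. Fau, made as a ubiquitin-like protein fused to a small subunit protein, was at 129.7 and 109 in the controls and 110.5, 128 and 80.7 after PNMC (log2 change -0.19). PNMC 3 was its lowest library, and the change was -0.0035 without PNMC 3 and -0.33 without PNMC 2. Rack1, a scaffold on the small subunit head, was at 24.6 and 30.3 in the controls and 37.7, 33.7 and 28.5 after PNMC (log2 change 0.27), and PNMC 3 was not its lowest library. The change of Rack1 was 0.13 without control 1 and 0.42 without control 2.

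Other transcripts listed for an oligopyrimidine tract numbered 19 tested of 20, with 14 lower and 5 higher. The lower share was 73.7%, against 56.9% of all genes, with 0 called and a median log2 change of -0.11. Among the lower ones were all the noncoding hosts of small nucleolar RNAs on the list, Gas5, Snhg1, Snhg5, Snhg6 and Snhg8. Translation elongation factors formed a list of their own, given below, and are not part of the 73.7%. Gas5, a noncoding host of small nucleolar RNAs, was at 37.4 and 39.5 in the controls and 26.4, 30.9 and 25.5 after PNMC (log2 change -0.47, SE 0.188, limma adjusted p = 0.967). Snhg6, another such host, was at 2.96 and 6.39 in the controls and 1.88, 2.72 and 1.63 after PNMC (log2 change -0.83, SE 0.376). Both lay under the controls in all 3 PNMC libraries, and they were the 2 genes of the list with an unadjusted limma p under 0.05, where 3.27% of all genes were lower at that threshold. Snhg6 was at -1.28 without control 1 and -0.38 without control 2.

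Of the translation elongation factors 2 of 8 were lower and 6 higher, with 0 called and a median log2 change of 0.12. Whether this balance differed from that of other genes was not tested. Eef1d, an exchange factor subunit for Eef1a1, was at 37.7 and 26.4 in the controls and 47.8, 43.0 and 37.4 after PNMC (log2 change 0.42, SE 0.203, limma adjusted p = 0.986). Its groups overlapped by a small margin, and its change was 0.67 without control 1 and 0.17 without control 2. Eef2k, the kinase that restrains elongation and also listed with hibernation factors, was at 400 and 364 in the controls and 452, 378 and 447 after PNMC (log2 change 0.15, SE 0.119).

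Regulators of these mRNAs and of ribosome number numbered 19 tested of 22, with 10 lower, 9 higher, 0 called and a median log2 change of -0.03. Rptor, the mTORC1 scaffold, was at 6.06 and 5.25 in the controls and 3.12, 1.45 and 3.89 after PNMC, without overlap (log2 change -0.86, SE 0.363, limma adjusted p = 0.967). Ltn1, a ligase of ribosome quality control, was at 3.10 and 2.94 in the controls and 2.41, 2.08 and 1.62 after PNMC (log2 change -0.41, SE 0.347). Both were low-level genes that lay under the controls, and 1 gene of the list had an unadjusted limma p under 0.05, where 4.99% of all genes did. Without PNMC 2 the log2 change of Rptor was -0.57. In the lists of elongation, chaperone and hibernation factors that number was 0.

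Ribosomal protein chaperones and late assembly factors numbered 18 tested of 19, with 12 lower, 6 higher, 0 called and a median log2 change of -0.06. Efl1, the GTPase that with Sbds releases Eif6 from the large subunit, was at 3.14 and 6.26 in the controls and 10.3, 7.59 and 4.72 after PNMC (log2 change 0.58, SE 0.356). Eif6 was at 319.5 and 263 in the controls and 267, 245 and 269.7 after PNMC (log2 change -0.16, SE 0.126). Both overlapped. The change of Efl1 was 0.18 without control 1 and 0.99 without control 2, and that of Eif6 -0.018 and -0.30. Of 8 hibernation and storage factors 7 were tested, with 5 lower, 2 higher, 0 called and a median log2 change of -0.05, and among them Ccdc124 was at 34.0 and 29.3 in the controls and 31.9, 29.5 and 21.2 after PNMC.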

How the data were processed

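Libraries were made with Smart-seq2 from TRIzol-extracted total RNA, per the labels' protocols. HISAT2 2.0.5, HTSeq, Trimmomatic, DESeq2 1.16.1 and the build GRCm39 are named in the submitters' processing notes, without an annotation or the tool that wrote the table. What the authors deposited was a normalised signal per gene and library, in a unit not stated. No common step was found among low values, so whole reads were not recovered and no count test was run.

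The filter kept 12734 genes reaching 1 in 2 or more libraries and removed 19551. On the log2(value + 1) scale, limma 3.58.1 (trend, robust variances; R 4.3.3) compared the 3 PNMC libraries with the 2 controls, with Benjamini-Hochberg adjustment over all genes tested at 0.05. SEs and 95% intervals are limma's. Paralog ratios were tested by exact permutation over libraries with scipy 1.17.1 in Python 3.11.15. The limma step was tested on simulated data. Shared 75-base stretches came from GENCODE M21 transcripts, coding identity from Biopython 1.88 alignments, and promoters from RefSeq on GRCm38.p6, another build than the submitters', so no coordinates were converted.

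Members and lists were chosen with earlier results of these data known. Genes were named by rule: paralogs and their main genes, the 3 highest and 3 lowest per subunit, the 5 smallest p in each direction, the 3 largest and 3 smallest SDs, 12 genes of known role, and 2 genes per related list. Of the genes this rule names, 2 are not reported here; they stay in counts and medians. The 12 genes without overlap, the copies sharing sequence, and the cell markers with values were named after their values were seen, apart from fixed marker lists. Alternatives changed the pseudocount, filter, scaling, variance model, replicate block and libraries left out.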

Additional observations from a re-analysis of the deposited data

How the results depend on the processing

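The number of called genes was 0 with a pseudocount of 0.1, with no filter, with a minimum of 10, under quantile normalisation, median scaling and limma without trend, and between 0 and 1 with a library left out; the 1 call, without PNMC 1, was no ribosomal protein gene. The median log2 change of the members kept its sign under every alternative run, from -0.27 to -0.013 with a library left out. Members with lower means numbered from 43 to 71 with a library left out. Members without overlap numbered from 14 to 43 (16.7% to 51.8%), against 31.7% to 52.3% of all genes. Their number was 9 (10.7%) under quantile normalisation, against 19.6% of all genes. After median scaling it was 8 (9.52%), against 20.7% of all genes. The large-minus-small difference was between -0.15 and -0.10. Among the 13 members sharing under 10% of their sequence, a subset added after seeing the data, 8 were lower and large minus small was -0.19. With a library left out, ranges of Rpl10l to Rpl10 (-0.11 to 0.89), Rpl39l to Rpl39 (-0.13 to 0.57), Rpl23 (-0.014 to 0.48) and Rpl22l1 (-0.11 to 0.83) crossed 0, and the cause was not tested. Replicate numbers are shared by the groups in the labels, but same-numbered libraries did not deviate together (correlations of -0.06 and -0.04), so the numbers were not taken as pairs. With the number as a replicate block, PNMC 3 has no partner, so the estimates were those without PNMC 3 and add nothing to them. The median was -0.013, 43 members were lower, large minus small was -0.15, and Rpl39l to Rpl39 was -0.13. In that fit 0 genes were called. With the depth unknown, the counting error of low members such as Rpl29 and Rpl22l1 could not be estimated.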
